A study of Rattus norvegicus with 6 samples.

Results

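Heterotrimeric G protein subunits, RGS proteins, adenylate cyclases and cyclic nucleotide phosphodiesterases were followed in rat spinal cord after contusion, a blunt blow to the exposed cord. The members were all probe sets annotated to 1 gene whose symbol begins with Gna, or with Gnb, Gng, Rgs, Adcy or Pde and a digit. This gave 71 of 8799 probe sets and 47 genes. They were 17 probe sets for G alpha subunits, 8 for G beta, 8 for G gamma, 10 for RGS proteins, 9 for adenylate cyclases and 19 for phosphodiesterases. A further 2 probe sets, assigned to Gnai1 and Gnai3 together and to Pde11a and Cyct together, were left out. Total RNA had been taken from the injury epicenter, at about thoracic segment 8, on day 35 after contusion (3 arrays) and from the same level of uninjured animals (3 arrays). The titles name no sham operation and no day for the uninjured animals, and the labels used here give no strain, sex or age. Nor do they tell whether every array stood for a separate animal. The p-values therefore reflect array-to-array spread in these 6 arrays, part of which may be technical.

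A receptor that binds its transmitter makes the G alpha subunit exchange GDP for GTP and part from the paired beta and gamma subunits. Gs and Golf alpha subunits stimulate adenylate cyclase, which makes cyclic AMP, Gi alpha subunits inhibit it, and RGS proteins speed GTP hydrolysis and so end the signal. Phosphodiesterases break down cyclic AMP, cyclic GMP or both. In spinal cord these proteins act downstream of opioid, monoamine, GABA-B and adenosine receptors on neurons, and of chemokine and purine receptors on microglia.

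The values are probe set signals on a linear scale. A signal under 61.6, the 25th percentile of all values, was set to that floor, and only probe sets above it on 3 or more of the 6 arrays were tested. Median signals ran from 122 to 127 per array, and the share of probe sets above the floor from 73.1% to 76%. The labelled tissue showed its markers: neuronal, astrocyte and myelin genes lay above the floor in both groups, with only Syt1 of the neuronal list at the floor on all arrays. All 9 tested neuronal markers passed as lower after contusion, with a summed signal of 7397 to 7819 against 14830 to 17420 in uninjured cord. Of 11 microglia and macrophage markers 10 passed as higher (summed signal 6159 to 6628 against 1657 to 2056), and the other, Csf1r, had a log2 change of -0.33. Among the 10, Fcgr2b and Itgam lay at the floor on every uninjured array and entered the test through the contused arrays alone. Fibroblast and meningeal markers passed as higher in 4 of 8 cases (6126 to 8183 against 2626 to 5482), and myelin markers as lower in 4 of 7 (12820 to 13850 against 15450 to 16460). Of 8 astrocyte markers 1 was higher (11270 to 12100 against 11170 to 12040). Of 5 tested lymphocyte markers 1 was higher, Cd4, which rat macrophages also carry (719.5 to 815.2 against 599.2 to 796.6 for the list, with Cd3g at the floor on all arrays). In limma 0 of 4 endothelial, 0 of 4 smooth muscle and pericyte and 0 of 6 Schwann cell markers passed. At an unadjusted p of 0.05, 0, 0 and 2 of them, respectively, were higher and none was lower. Of all 3955 genes tested, 510 were higher and 668 lower at that level. In whole tissue, fewer cells of a type and less RNA per cell cannot be told apart, and the part of these shifts in the changes below was not tested.

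Of the 71 member probe sets 64 were tested, standing for 44 of the 47 genes. With limma, 11 passed a Benjamini-Hochberg adjusted p of 0.05 over all probe sets tested (17.2%), against 17.4% of all 6705 probe sets. Of these, 4 were higher after contusion (7.79% of all probe sets were) and 7 lower (9.59% of all). For 2 of the 11, Rgs1 and Adcy4, every uninjured array lay at the floor. Of all 1165 called probe sets, 65 had every array of 1 group at the floor. Rgs1 and Adcy4 entered the test through the contused arrays alone, so their calls carry no support beyond the signals themselves. By gene, Gnai2, Rgs1 and Adcy4 rose, and Gnai1, Gnao1, Gnas, Gnb5, Gng8, Pde2a and Pde4b fell. The members as a whole were thus called about as often as the rest of the array, and the changes lay in 1 to 4 genes of each family. The median log2 change of the members was -0.04, beside -0.005 for all tested probe sets, and under scaling to a common 75th percentile it was 0.002. Their changes ran from -1.21 to 0.99. The groups did not overlap for 25 of the 64 (39.1%), beside 34.8% of all tested probe sets. Without contused array 1 or 2, or uninjured array 1 or 3, 2 members in place of 4 were higher. Over the whole array, higher calls in these fits numbered 440, 295, 356 and 276, respectively, in place of 522.

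**Figure D1:**
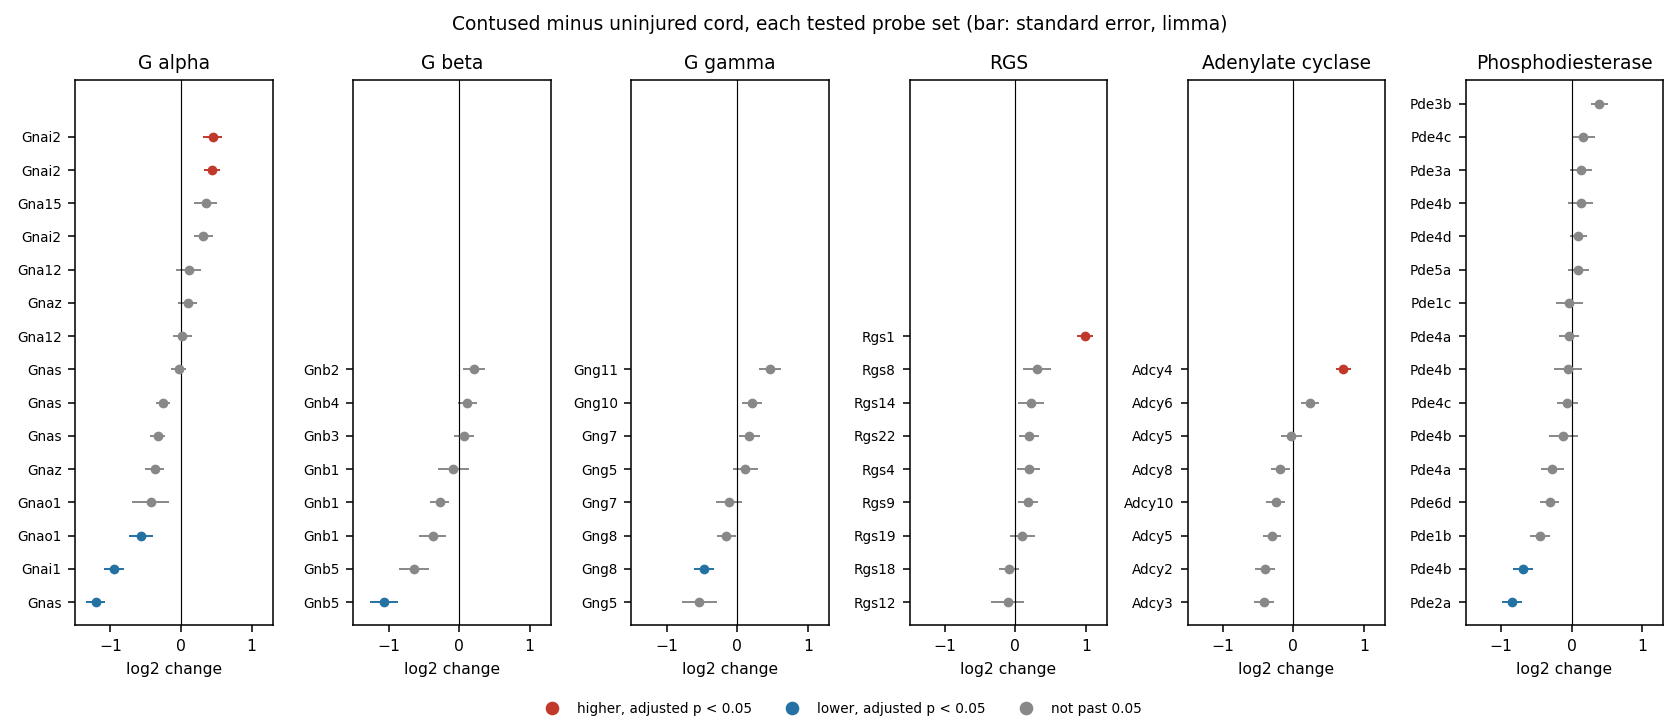
Log2 change between contused and uninjured cord (x axis) for each of the 64 tested member probe sets, by family, with points for limma's estimate and bars for its standard error. Red points passed as higher (4) and blue points as lower (7), and the changes ran from -1.21 for a Gnas probe set to 0.99 for Rgs1.

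Promoter windows are shown for the 6 genes with a call kept under every processing alternative in which it was tested. Of these Gnai1, Gnas, Gnb5 and Pde4b were lower and Rgs1 and Adcy4 higher. Rgs1 and Adcy4 were not tested with the floor raised to the 50th percentile of all values. Their kept calls say nothing about stability, since their uninjured arrays lay at the floor. The windows come from RefSeq on the GRCr8 assembly of the rat genome, run from 250 bases before to 50 after a gene's start, and are written 5′ to 3′ on the gene's strand. For each gene the table holds 1 start, also for Gnas, a locus with several promoters. Capitals mark matches on either strand to GGGCGG (the GC box bound by Sp1), to TGACG (the core of the cyclic AMP response element TGACGTCA, and contained in it) and to GAGGAA (a core of sites for the myeloid factor PU.1).
Gnai1, GRCr8 chr4:17705811-17706110, plus strand: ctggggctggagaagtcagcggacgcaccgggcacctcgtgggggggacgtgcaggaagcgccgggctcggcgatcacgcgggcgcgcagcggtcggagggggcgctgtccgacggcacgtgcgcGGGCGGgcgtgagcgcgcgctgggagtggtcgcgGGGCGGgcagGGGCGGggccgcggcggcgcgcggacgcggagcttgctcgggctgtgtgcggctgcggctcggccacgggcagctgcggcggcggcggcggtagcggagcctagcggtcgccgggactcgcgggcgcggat
Gnas, GRCr8 chr3:183489398-183489697, plus strand: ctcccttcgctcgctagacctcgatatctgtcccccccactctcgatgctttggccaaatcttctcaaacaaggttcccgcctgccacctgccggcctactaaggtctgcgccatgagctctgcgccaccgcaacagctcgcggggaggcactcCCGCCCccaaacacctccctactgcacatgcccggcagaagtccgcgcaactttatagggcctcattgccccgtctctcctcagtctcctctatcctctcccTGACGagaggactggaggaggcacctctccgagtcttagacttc
Gnb5, GRCr8 chr8:84956379-84956678, plus strand: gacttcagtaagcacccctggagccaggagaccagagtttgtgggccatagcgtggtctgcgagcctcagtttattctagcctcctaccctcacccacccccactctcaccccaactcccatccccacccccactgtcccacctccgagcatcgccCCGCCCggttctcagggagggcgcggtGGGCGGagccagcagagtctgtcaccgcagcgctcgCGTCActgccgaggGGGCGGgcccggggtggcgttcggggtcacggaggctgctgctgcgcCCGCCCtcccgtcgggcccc
Rgs1, GRCr8 chr13:58573138-58573437, minus strand: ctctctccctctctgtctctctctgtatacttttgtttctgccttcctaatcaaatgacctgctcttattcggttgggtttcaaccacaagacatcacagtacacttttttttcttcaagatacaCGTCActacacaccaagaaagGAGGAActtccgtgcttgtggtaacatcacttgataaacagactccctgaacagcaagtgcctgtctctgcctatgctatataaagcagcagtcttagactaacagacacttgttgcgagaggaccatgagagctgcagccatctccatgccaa
Adcy4, GRCr8 chr15:33251977-33252276, minus strand: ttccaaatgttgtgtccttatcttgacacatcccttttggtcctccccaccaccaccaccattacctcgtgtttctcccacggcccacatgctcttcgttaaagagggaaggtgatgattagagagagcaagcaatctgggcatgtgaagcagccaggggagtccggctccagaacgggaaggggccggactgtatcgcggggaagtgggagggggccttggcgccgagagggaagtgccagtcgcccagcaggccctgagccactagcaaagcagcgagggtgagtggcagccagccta
Pde4b, GRCr8 chr5:122028706-122029005, plus strand: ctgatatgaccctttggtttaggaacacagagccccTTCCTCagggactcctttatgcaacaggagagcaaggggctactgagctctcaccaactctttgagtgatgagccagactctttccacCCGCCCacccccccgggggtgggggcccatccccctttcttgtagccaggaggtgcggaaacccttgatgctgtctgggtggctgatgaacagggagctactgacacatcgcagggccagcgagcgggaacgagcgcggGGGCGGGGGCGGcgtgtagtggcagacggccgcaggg

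The Gnai1 window, 80.3% G and C, held 3 GC boxes and the Gnb5 window 4, with 1 TGACG in the latter. The Gnas window held 1 GC box and 1 TGACG. The Rgs1 window, at 44.7% G and C, held no GC box, 1 TGACG and 1 GAGGAA. The Pde4b window held 3 GC boxes and 1 GAGGAA, and none of the 4 motifs was found in that of Adcy4. Of the 47 member genes 34 matched the table. GGGCGG was found in 17 of these windows (50%), beside 34.9% of all 27457 windows of 300 bases, and TGACG in 8 (23.5%), beside 22%. GAGGAA was found in 10 (29.4%), beside 27.5%, and TGACGTCA in 1, that of Gnao1, beside 1.9% of all. The median share of G and C was 61.5% in the member windows and 52.3% in all, and a match in these letters is a description and no proof of a binding site.

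Among the G alpha subunits, Gnai1 fell and Gnai2 rose, and Gnas and Gnao1 fell in 1 probe set each. Of 15 tested probe sets 5 passed (33.3%, beside 17.4% of all probe sets), 2 higher and 3 lower. These 5 probe sets stand for 4 genes, and those of 1 gene are not independent of each other. The median log2 change of all 15 was -0.04 and ran from -0.145 to 0.042 over the alternatives. Without contused array 1 or 2 or uninjured array 1 or 3, 0 were higher in limma. In these fits the higher calls over the whole array also fell, from 522 to 440, 295, 356 and 276, respectively. Gnai1, an inhibitory subunit, gave signals of 208, 199 and 216 on the contused arrays and 381, 455 and 369 on the uninjured arrays. The groups lay far apart, with the highest contused value well under the lowest uninjured one. The fall was 1.93-fold (log2 change -0.95, SE 0.14, limma adjusted p = 0.00124), and it passed in 13 of 13 alternatives (adjusted p 0.00111 to 0.00977).

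Gnai2, the inhibitory subunit that prevails in leukocytes and also occurs in glia, moved the other way. Its probe set M12672_at gave 969, 893 and 1076 after contusion against 667, 800 and 688. The second, rc_AA875225_at, gave 1390, 1310 and 1323 against 999, 1061 and 919. In both, each contused array was above each uninjured one, and the rises were 1.36-fold (log2 change 0.45, SE 0.13, limma adjusted p = 0.0405) and 1.35-fold (0.44, SE 0.11, adjusted p = 0.0244). The third, rc_AA875225_g_at, designed on the same sequence as the second, also showed no overlap (1144, 1210 and 1252 against 858, 1120 and 933) and did not pass (log2 change 0.32, adjusted p = 0.131) except with quantile normalization (0.0253, range over its alternatives 0.0253 to 0.343). The call of M12672_at ended when contused array 1 (adjusted p = 0.0844), 2 (0.0596) or 3 (0.0796) or uninjured array 1 (0.13) or 3 (0.147) was left out. Its adjusted p ranged from 0.00737 to 0.147 over its 13 alternatives. The call of rc_AA875225_at ended without contused array 1 (0.0628) or 2 (0.0607) or uninjured array 1 (0.0667) or 3 (0.128), with a range of 0.00781 to 0.128. With 1 array left out, the log2 changes stayed between 0.378 and 0.528 for M12672_at and between 0.381 and 0.485 for rc_AA875225_at. With the replicate number as a block, M12672_at did not pass (adjusted p = 0.0547). Microglia and macrophage markers, given above, were higher on the same arrays, and their part in this rise was not tested.

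The log2 signal of Gnai1 minus that of Gnai2 (M12672_at) was -2.22, -2.17 and -2.32 on the contused arrays and -0.81, -0.82 and -0.9 on the uninjured arrays. The size of this gap depends on the probes and has no meaning of its own, but it was wider on every contused array. It shifted by -1.39 on the log2 scale between groups (exact permutation test, two-sided, p = 0.1, the smallest that 3 against 3 arrays allow, and 0.2 adjusted over the 4 pairs of probe sets compared). These pairs were chosen after their values were seen, so the shift restates the fall of Gnai1 and the rise of Gnai2 and adds no support to them.

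Gnas, which encodes the stimulatory subunit Gs alpha together with several imprinted products of the same locus, had 4 tested probe sets and 1 call. L10326_at gave 480, 413 and 435 after contusion and 912, 1088 and 1080 in uninjured cord, a 2.32-fold fall (log2 change -1.21, SE 0.13, limma adjusted p = 0.000206) that passed in 13 of 13 alternatives (adjusted p 0.000181 to 0.00265). This was the largest fall among the member probe sets. The 3 others, with mean uninjured signals of 2765 to 4365, moved less. X84047cds_at gave 2224, 2235 and 2132 against 2522, 2762 and 3012, without overlap, and had an adjusted p of 0.0602 (log2 change -0.33). It passed with quantile normalization (0.0263) and with the floor raised to the 50th percentile of all values, called the median floor below (0.0496), and its range over the alternatives was 0.0263 to 0.261. The probe set rc_AI237836_at had a log2 change of -0.26, and that of rc_AI237836_g_at was -0.03 (95% interval -0.28 to 0.21). Within arrays, L10326_at minus rc_AI237836_at lay at -2.6, -2.84 and -2.72 after contusion and at -1.82, -1.73 and -1.73 in uninjured cord, a shift of -0.96 (exact permutation p = 0.1, 0.2 adjusted over the 4 pairs). At 3 against 3 arrays this test could not pass, and the pair was chosen after its values were seen. The labels and files do not say which transcripts each of them detects.

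Gnao1, the Go alpha subunit abundant in neurons, gave 228, 202 and 284 after contusion against 295, 379 and 380 for M17526_at. The highest contused array came close to the lowest uninjured array without reaching it, and the fall was 1.48-fold (log2 change -0.57, SE 0.17, limma adjusted p = 0.0457). M17526_g_at, from the same sequence, overlapped between groups (226, 223 and 365 against 236, 455 and 420, adjusted p = 0.316). The call did not hold without contused array 1 (adjusted p = 0.123) or 2 (0.17) or uninjured array 2 (0.133) or 3 (0.166), without the filter on dim probe sets (0.0659) and with quantile normalization (0.0546), and its range over the alternatives was 0.0209 to 0.17. The 9 tested neuronal markers were lower on the same arrays, by a median log2 change of -1.15, and their part in the falls of Gnai1, Gnao1 and Gnas was not tested.

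The remaining G alpha genes did not pass. Gna12 had log2 changes of 0.02 (95% interval -0.28 to 0.32) and 0.11 in its 2 probe sets. Gna15, a Gq class subunit of blood cells, gave 193, 223 and 241 against 201, 148 and 170 (log2 change 0.35, adjusted p = 0.181). Gnaz, the pertussis toxin-insensitive inhibitory subunit, had changes of -0.37 and 0.09, of which the first came without overlap of the groups (206, 197 and 219 against 276, 261 and 269, adjusted p = 0.0816). Gnal, the olfactory type stimulatory subunit, lay under the floor on all contused arrays (17.8, 26 and 26.1) and above it on 1 uninjured array (58.7, 78.4 and 60.5), so it was not tested. With a fixed floor of 16 it was lower (log2 change -1.51, limma adjusted p = 0.000911), and without the filter on dim probe sets, where its dim values stay at the floor of 61.6, it did not pass (-0.12, adjusted p = 0.502). Gnat3, the gustducin alpha subunit of taste cells, lay at the floor on all arrays.

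Of 5 G beta genes with 8 tested probe sets, only Gnb5 passed, in 1 of its 2 probe sets. This was 12.5% of the family's tested probe sets, beside 17.4% of all probe sets. Gnb5 is the divergent beta subunit that pairs with RGS proteins of the R7 group in neurons. AF001953_g_at gave 88.5, 145 and 126 after contusion against 215, 289 and 239, a 2.09-fold fall (log2 change -1.07, SE 0.2, limma adjusted p = 0.0048) kept in 13 of 13 alternatives (adjusted p 0.0011 to 0.0259). AF001953_at, from the same sequence, gave 102, 144 and 188 against 246, 209 and 204. It too kept its groups apart and moved down (log2 change -0.64), but had an adjusted p of 0.0636. It passed without contused array 3 (0.0173) and with a median floor (0.0399), with a range of 0.0173 to 0.184 over its alternatives. Within arrays, the difference between these 2 probe sets shifted by -0.42 (exact permutation p = 0.2, 0.267 adjusted over the 4 pairs). At 3 against 3 arrays this test could not pass, and it does not show whether their falls differed.

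The widely expressed Gnb1 had log2 changes of -0.37, -0.28 and -0.08 in 3 probe sets. U88324_at, the first of these, gave 286, 283 and 443 on the contused arrays and 372, 431 and 485 on the uninjured arrays, where contused array 3 stood apart from the other two. Without it the probe set passed (log2 change -0.59, adjusted p = 0.0308, range over the alternatives 0.0308 to 0.499), and the count of lower G beta probe sets rose from 1 to 3. In the same fit, lower calls over the whole array rose from 643 to 776. Gnb2, Gnb3 and Gnb4 had changes of 0.21, 0.08 and 0.12 and did not pass. In this family 0 probe sets were higher, also at an unadjusted p of 0.05 in limma (beside 940 of all 6705).

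G gamma subunits carry the lipid anchor of the beta-gamma pair. Of 8 tested probe sets for 5 genes, 1 passed (12.5%, beside 17.4% of all probe sets). Gng8, a gamma subunit known from olfactory and vomeronasal neurons, gave 217, 195 and 183 after contusion against 254, 276 and 291 for L35921_g_at. The groups did not overlap, and the fall was 1.38-fold (log2 change -0.47, SE 0.14, limma adjusted p = 0.045). L35921_at, from the same sequence, had a change of -0.15 (adjusted p = 0.511). L35921_g_at did not pass without contused array 2 (adjusted p = 0.129) or 3 (0.0891) or any of uninjured arrays 1 (0.0678), 2 (0.0945) and 3 (0.168), with quantile normalization (0.0686), with scaling to a common 75th percentile (0.065) and with the replicate number as a block (0.0715). Its range over the alternatives was 0.034 to 0.168, and it passed in 5 of 13.

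Gng11, a farnesylated gamma subunit of many tissues, gave 379, 388 and 438 against 318, 323 and 237. All contused arrays were above all uninjured ones, yet the adjusted p was 0.0693 (log2 change 0.47). It passed with quantile normalization (0.0444) and with scaling to a common 75th percentile (0.0491), within a range of 0.0444 to 0.267. The log2 change of Gng10 was 0.21. Gng5 gave -0.54 and 0.11 in its 2 probe sets, and the former rested on uninjured signals of 152, 65.3 and 94.1 against 65.4, 67.5 and 69.7. Without uninjured array 2, which lay among the contused values, that probe set passed (log2 change -0.83, adjusted p = 0.0304, range over the alternatives 0.0304 to 0.439). Gng7, the gamma subunit that assembles with Golf in striatum, gave -0.12 and 0.17. In this family 0 probe sets were higher at the threshold in limma, and 1, that of Gng11, at an unadjusted p of 0.05 (beside 940 of all 6705).

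Of the RGS family only Rgs1 passed, in 1 of 9 tested probe sets (11.1%, beside 17.4% of all probe sets). Rgs1 acts on Gi and Gq subunits in lymphocytes and other leukocytes, where it curbs chemokine receptor signals. Its signals were 120, 128 and 119 after contusion and 44.8, 36 and 54 in uninjured cord. All uninjured arrays lay under the floor, so the gene was at least 1.99-fold higher (limma adjusted p = 0.00027). Because the uninjured arrays share 1 floored value, this p rests on the spread of the contused arrays and of other probe sets. The gene was not tested under the median floor. Beside it, 10 of 11 microglia and macrophage markers were higher, of which Fcgr2b and Itgam were likewise at the floor on every uninjured array. Of 5 tested lymphocyte markers 1 was higher, Cd4 (log2 change 0.97, adjusted p = 0.00259). The other 4, Cd3d, Cd8a, Lck and Cd2, had log2 changes between -0.22 and 0.17 and did not pass. The part of these cells in the rise was not tested.

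The other RGS genes did not pass. Rgs4, abundant in neurons, gave 83.9, 117 and 122 against 91.2, 97 and 90.9 (log2 change 0.19, 95% interval -0.16 to 0.54). Rgs9, a partner of Gnb5 in photoreceptors and striatum, gave 174, 213 and 194 against 175, 166 and 169. Its groups overlapped by 1 array, and it did not pass (log2 change 0.18, 95% interval -0.13 to 0.5). Rgs8, known from Purkinje cells, had a change of 0.31 and was raised mainly on contused array 1 (235, 155 and 151 against 141, 122 and 167).

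Rgs12 and Rgs14, large RGS proteins that also bind GDP-bound Gi, had changes of -0.11 and 0.22. Rgs19, also called GAIP, had a change of 0.1, Rgs18, known from platelets, -0.09, and Rgs22 0.2. The median of the 9 was 0.19 (0.11 to 0.23 over the alternatives), beside -0.005 for all tested probe sets. Of the 9, 7 were positive, beside 3313 of all 6705, and 8 did not pass. In limma 0 were lower, also at an unadjusted p of 0.05 (beside 1090 of all 6705). The groups did not overlap for 1 of the 9 (11.1%, beside 34.8% of all probe sets).

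Among adenylate cyclases Adcy4 rose, and the other 7 tested probe sets did not pass (12.5% called, beside 17.4% of all probe sets). Adcy4, a calcium-insensitive cyclase that beta-gamma subunits stimulate, gave 96.6, 102 and 104 after contusion. The uninjured arrays gave 59.3, 48.4 and 56.2, all under the floor. It was at least 1.63-fold higher (limma adjusted p = 0.00145), with the same limit as for Rgs1, since the uninjured group is 1 floored value. With a median floor it was not tested.

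Adcy2, the cyclase most like Adcy4, and Adcy3, a calcium-responsive cyclase of olfactory and other primary cilia, lay lower on every contused array without passing. Adcy2 gave 170, 159 and 156 against 190, 228 and 224 (log2 change -0.4, limma adjusted p = 0.0828). Adcy3 gave 152, 141 and 138 against 171, 208 and 197 (log2 change -0.42, adjusted p = 0.0731). It passed with a median floor (0.0306), within a range of 0.0306 to 0.209. Adcy5, a cyclase of striatum and heart that Gi inhibits, gave 99.7, 97.2 and 114 against 131, 126 and 126 in M96159_at (log2 change -0.3, adjusted p = 0.154) and -0.03 in a second probe set.

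Adcy6, the close relative of Adcy5, had a change of 0.23, with 1 uninjured and 2 contused arrays above the floor. Adcy8, stimulated by calcium and calmodulin, had -0.18 and Adcy10, the soluble bicarbonate-sensitive cyclase, -0.25. The median of the family was -0.22, and in limma 0 probe sets were lower at the threshold. At an unadjusted p of 0.05, 3 were lower, those of Adcy2, Adcy3 and Adcy5 (M96159_at), beside 1090 of all 6705. The groups did not overlap for 5 of 8 probe sets (62.5%, beside 34.8% of all probe sets). These include Adcy4, whose uninjured arrays all lay at the floor. The share was 60% for G alpha, 37.5% for G beta, 25% for G gamma and 31.2% for phosphodiesterases.

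**Figure D2:**
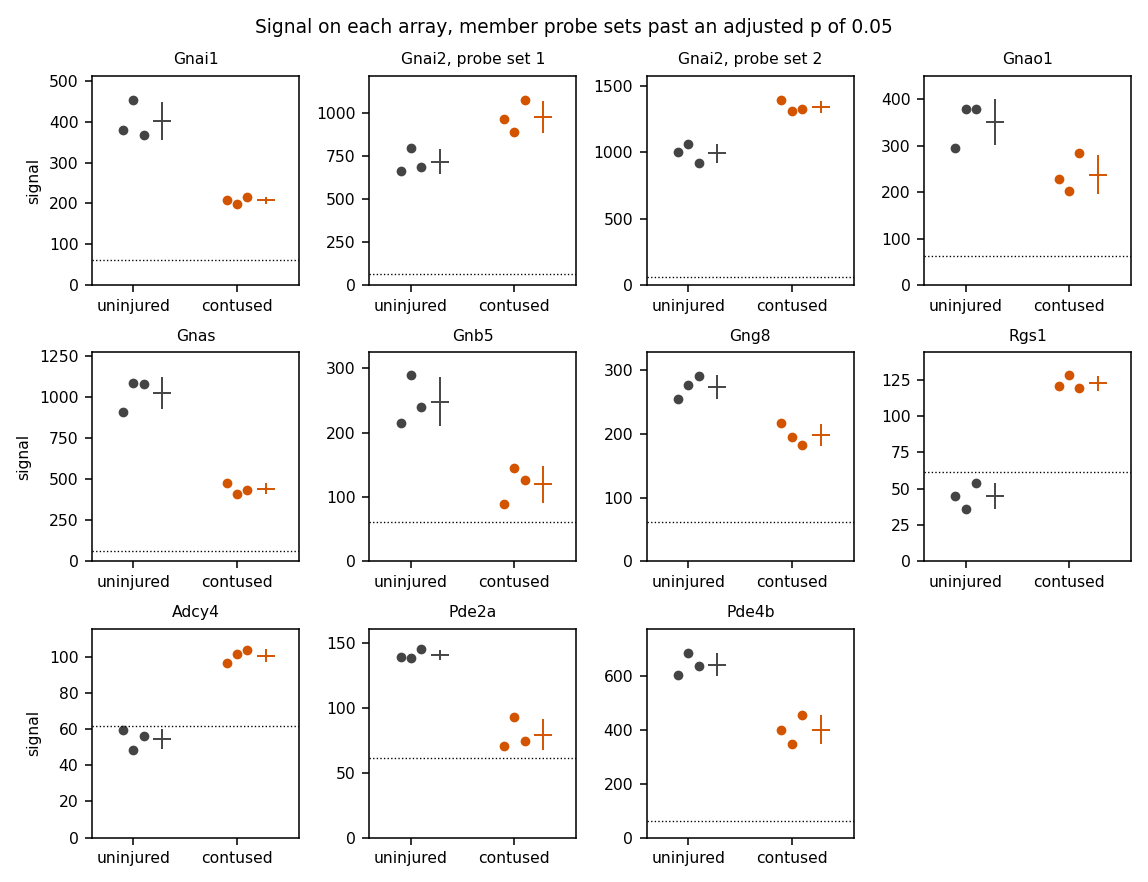
Signal (y axis, linear, from 0) on each of the 3 uninjured and 3 contused arrays for the 11 member probe sets that passed, with the mean and SD beside the points and the floor of 61.6 as a dotted line. The groups do not overlap in any panel, and the uninjured points of Rgs1 and Adcy4 all lie under the floor.

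Of the phosphodiesterases Pde2a fell, and Pde4b fell in 1 of 4 probe sets. These were 2 of 16 tested probe sets (12.5%, beside 17.4% of all probe sets). Pde2a is the dual-specificity enzyme that cyclic GMP stimulates. It gave 70.5, 92.9 and 74.5 after contusion against 139, 138 and 145, with the contused arrays just above the floor. The fall was 1.79-fold (log2 change -0.84, SE 0.14, limma adjusted p = 0.00269), and it passed in 12 of 13 alternatives. With a median floor, which lies close to its uninjured signals, the change was -0.17 (adjusted p = 0.149, range over the alternatives 0.00206 to 0.149).

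Pde4b, a cyclic AMP-specific enzyme of leukocytes and brain, gave 399, 347 and 454 against 601, 686 and 634 in rc_AA799729_g_at. The groups lay apart, and the fall was 1.61-fold (log2 change -0.68, SE 0.14, limma adjusted p = 0.00791), past the threshold in 13 of 13 alternatives (adjusted p 0.00544 to 0.0407). In rc_AA799729_at, from the same sequence, the values were 171, 172 and 110 against 133, 167 and 160 (log2 change -0.05), and the other two probe sets had changes of -0.12 and 0.13. The within-array difference of the first pair shifted by -0.64, with 1 contused array among the uninjured values (exact permutation p = 0.3, 0.3 adjusted over the 4 pairs). So 1 of 4 probe sets carried the fall.

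Near the threshold stood Pde1b, activated by calcium and calmodulin, and Pde3b, inhibited by cyclic GMP. Pde1b gave 117, 133 and 124 against 154, 171 and 184 (log2 change -0.45, limma adjusted p = 0.0541). It passed with no intensity trend (0.0414), a median floor (0.016) and quantile normalization (0.0474), within a range of 0.016 to 0.201. Pde3b gave 104, 105 and 111 against 81, 88.1 and 75.1 (log2 change 0.39, adjusted p = 0.0521). In both genes the groups did not overlap. Pde3b passed without the filter on dim probe sets (0.0407) and with scaling to a common 75th percentile (0.0365), within a range of 0.0365 to 0.206.

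The delta subunit gene Pde6d, whose product carries prenylated proteins and is no enzyme, gave 211, 226 and 239 against 264, 290 and 282 (log2 change -0.31, adjusted p = 0.154). Pde4a had changes of -0.04 and -0.28, and Pde4c of 0.17 and -0.06. The changes of Pde1c, Pde3a, Pde4d and Pde5a were -0.03, 0.13, 0.1 and 0.1 in their tested probe sets. Pde7a, under the floor on all uninjured arrays and above it on 2 contused arrays (71.6, 51.8 and 65.1 against 51.7, 41.6 and 57), was not tested. The median over the 16 tested probe sets was -0.04. In limma 0 were higher at the threshold and 1, Pde3b, at an unadjusted p of 0.05 (beside 940 of all 6705).

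Of 14 member genes with more than 1 tested probe set, 6 had probe sets that differed in the call (Gnai2, Gnao1, Gnas, Gnb5, Gng8 and Pde4b), or 42.9%, and 8 had none that passed. Over all genes with more than 1 tested probe set the calls differed in 247 of 1159 (21.3%), and in 247 of the 367 with a call. Of the 14 member genes, none had every tested probe set called, and none had calls in opposite directions. Gnai1, Rgs1, Adcy4 and Pde2a had 1 probe set each and so no second reading.

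**Figure D3:**
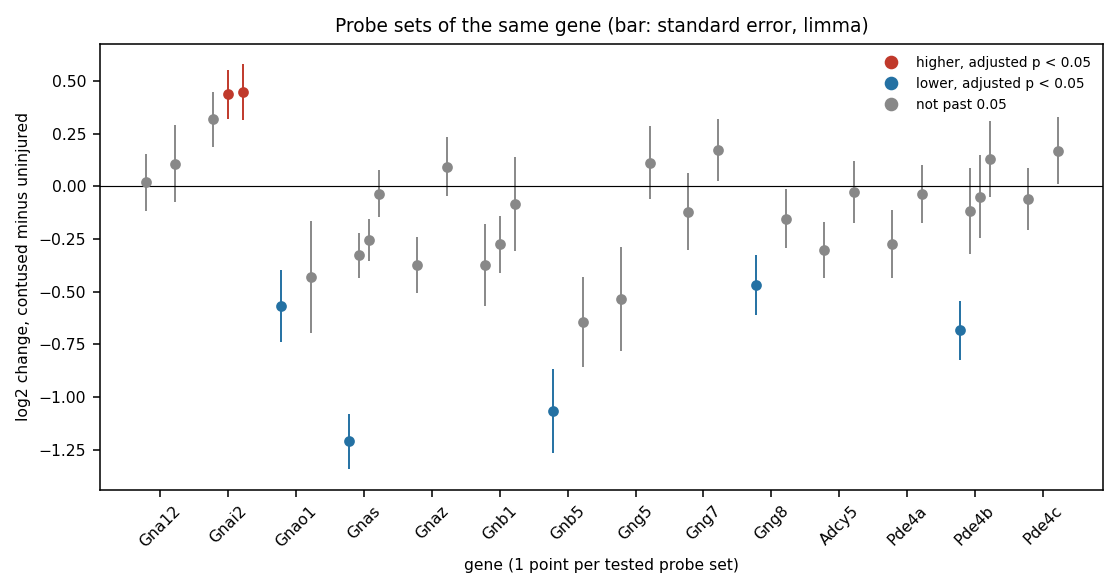
Log2 change between contused and uninjured cord (y axis, bars for limma's standard error) for each tested probe set of the 14 member genes with more than 1, red for higher and blue for lower calls. The 4 Gnas probe sets spread from -1.21 to -0.03 and the 4 Pde4b probe sets from -0.68 to 0.13, while the 3 of Gnai2 lie between 0.32 and 0.45.

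Genes that act beside or downstream of the members were taken from 9 lists of 76 genes, of which 55 were on the array and 46 were tested by their brightest probe set. Of these 8 passed as lower (17.4%, beside 9.91% of all 3955 genes) and 0 as higher (beside 7% of all). At an unadjusted p of 0.05 in limma 1 was higher and 11 were lower, beside 510 and 668 of all 3955. The median log2 change was -0.04, beside -0.02 for all genes. The lists were chosen with earlier results of these data known, so these shares are a description and no independent support. Of the 8, 4 belonged to the list of protein kinase A subunits and inhibitors, where 4 of 6 tested genes were lower with a list median of -0.74 (summed signal 3030 to 3333 against 5189 to 5392).

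Protein kinase A is the main target of cyclic AMP, a complex of regulatory and catalytic subunits. Prkar1b, the regulatory subunit prevalent in neurons, gave 917, 706 and 819 after contusion against 1821, 1792 and 1854. It fell 2.25-fold (log2 change -1.17, SE 0.13, limma adjusted p = 0.000195), while the ubiquitous Prkar1a had a change of -0.23 (adjusted p = 0.23). The catalytic subunit gene Prkaca gave 420, 436 and 484 against 726, 703 and 786 and fell 1.65-fold (adjusted p = 0.00315). Prkacb, named after its value was seen, gave 625, 619 and 830 against 1110, 1208 and 1165 and fell 1.69-fold (adjusted p = 0.00452), and its second probe set had a change of -0.23 (adjusted p = 0.288). Pkia, an inhibitor of the catalytic subunits, gave 209, 196 and 202 against 369, 394 and 373 and fell 1.87-fold (adjusted p = 0.000967), and 2 of its 3 probe sets passed. For each of these 4 probe sets the groups did not overlap and the call held in 13 of 13 alternatives.

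Of the other lists, Rapgef4 (Epac2, the exchange factor that cyclic AMP opens) was lower among 4 tested genes of its list, at 24, 31.4 and 51.4 against 109, 131 and 133. All contused arrays lay under the floor, so it was at least 2.01-fold lower (limma adjusted p = 0.000432). It entered the test through the uninjured arrays alone, and the contused group is 1 floored value. Rapgef3, its relative, had a log2 change of 0.25 and did not pass. Akap12, an anchoring protein of protein kinase A, fell 1.81-fold (152, 159 and 136 against 231, 259 and 325, adjusted p = 0.00516) as 1 of 6 tested genes, and its second probe set had a change of 0.02.

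Gucy1b1, the beta subunit of the nitric oxide receptor that makes cyclic GMP, fell 1.98-fold (186, 146 and 177 against 349, 312 and 345, limma adjusted p = 0.00133) as 1 of 6. Plcb1, the phospholipase that Gq activates, fell 1.55-fold (127, 122 and 129 against 175, 199 and 214, adjusted p = 0.0114) as 1 of 7. It did not pass without contused array 2 (0.0534) or uninjured array 3 (0.0663), within a range of 0.00279 to 0.0663. In limma 0 of 6 receptor kinase and arrestin genes, 0 of 2 other G protein regulators, 0 of 7 cyclic nucleotide or G protein gated channels and 0 of 2 phosphatase inhibitors passed. At an unadjusted p of 0.05 their counts were 1 lower, 1 higher, 0 and 0. The neuronal markers were lower on the same arrays, and their part in these falls was not tested.

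**Figure D4:**
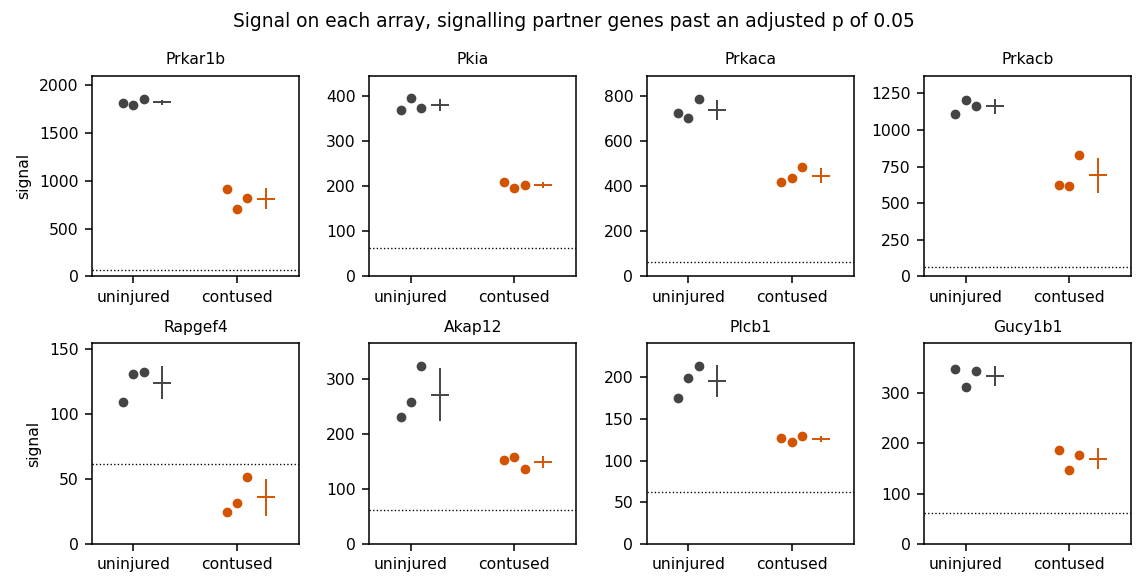
Signal (y axis, linear, from 0) on each uninjured and contused array for the 8 partner genes that passed, with the mean and SD beside the points and the floor of 61.6 as a dotted line. In every panel the 3 contused points lie under the 3 uninjured points, and for Rapgef4 they lie under the floor.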

How the data were processed

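The deposited table holds 1 intensity per probe set and array on a linear scale, as its values show. How the authors summarised, background-subtracted and scaled the arrays was not stated in the labels or the file, and so is not given here. Trimmed array means (2% off each end) lay within 8.94%, under the limit of 10%, so values were used as deposited. It had 0 other columns of values. Probe sets were named by the array's annotation, updated through gene identifiers to GRCr8 symbols, which changed 0 member names. Of the 8740 probe sets left without 59 controls, 7006 carried 1 gene, 308 several and 1426 none.

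Intensities were floored at 61.6 and put on the log2 scale, where the floor is 5.94 and understates changes of dim probe sets. Probe sets with at least 3 of 6 arrays above the floor were fitted with limma 3.58.1 in R 4.3.3 (eBayes with an intensity trend, two-sided, 4 residual degrees of freedom before moderation). Adjusted p-values are Benjamini-Hochberg values over all 6705 probe sets. Where all arrays of a group lay under the floor, the brighter group's mean was set against the floor, which gives the least fold. The number of arrays, 3 per group, limits the precision. The procedure was tested on simulated data, with changes placed only in probe sets well above the floor. That test therefore does not cover dim or floored members such as Rgs1, Adcy4 and Pde2a. Alternatives were other floors, no filter, 2 scalings, no trend, the replicate number as a block, and leaving out each array.

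Named are members that passed, the 3 brightest genes of each family, genes whose probe sets differ in the call, genes with 1 group under the floor, and up to 3 fallen or risen genes of each partner list. Others named were chosen after their values were seen. Members and lists were chosen with earlier results of these data known. In the partner and marker lists a gene was represented by its brightest tested probe set. Plots used matplotlib 3.10.9 in Python 3.11.15 with pandas 2.3.3. Titles number the replicates 1 to 3 in both groups. Deviations of same-numbered arrays from their group means correlated at 0.04, 0.22 and -0.24, so the numbers were not used as pairs.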

Additional observations from a re-analysis of the deposited data

How the results depend on the processing

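All 11 member calls kept their direction under each of the 13 alternatives in which they were tested, and 6 of them (Gnai1, Gnas, Gnb5, Rgs1, Adcy4 and a Pde4b probe set) stayed past the threshold in each, while 9 of the 53 other tested members passed in at least 1. For Rgs1 and Adcy4, with the uninjured group at the floor, this says nothing about stability. The count of members called was 7 to 11 with 1 array left out and 9 with the replicate number as a block, which ended the calls of Gnai2 (M12672_at) and Gng8. The array-wide count fell most without uninjured array 3 (659 in place of 1165) and without contused array 2 (723). The share of higher calls among all probe sets was 522 of 1165, and 615 of 1225 with scaling to a common 75th percentile.

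With a median floor, which left fewer probe sets tested, the count of higher members was 2 and of higher RGS and adenylate cyclase probe sets 0 each. Rgs1 and Adcy4 were not tested there, so these lower counts reflect missing tests and no lost calls. The count of lower adenylate cyclase probe sets was 1 and of lower G beta probe sets 2. With quantile normalization, and likewise with scaling to a common 75th percentile, 1 G gamma probe set was higher and 0 lower. Under the latter scaling 1 phosphodiesterase and 1 partner gene were higher, and without the filter on dim probe sets 1 phosphodiesterase was higher. With the replicate block 1 G alpha probe set was higher and 0 G gamma probe sets were lower. With 1 array left out, higher members numbered 2 to 4 and lower members 5 to 8. Over the whole array, higher calls then numbered 276 to 484 (522 with all arrays) and lower calls 383 to 776 (643 with all arrays). Higher G alpha probe sets numbered 0 to 2, lower G beta 1 to 3, lower G gamma 0 to 1 and higher partner genes 0 to 1. The causes of the other shifts were not tested.

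Changes near 0 turned sign in 17 member probe sets, none of them called. With scaling to a common 75th percentile the log2 changes became 0.002 for Gnas rc_AI237836_g_at, 0.009 for Adcy5 rc_AI011727_at, 0.003 for Pde1c L41045_at and 0.001 for Pde4a M26715_at. With the median floor Pde4b rc_AA799729_at gave 0.013. With 1 array left out the log2 changes ranged as follows in these probe sets: Gna12 D85760_at (-0.072 to 0.09), Gna12 S50461_s_at (-0.056 to 0.274), Gnas rc_AI237836_g_at (-0.087 to 0.059), Gnb1 AF022083_s_at (-0.354 to 0.062), Gng5 rc_AI232477_s_at (-0.095 to 0.225), Gng7 L23219_at (-0.248 to 0.071), Rgs12 AF035151_s_at (-0.297 to 0.132), Rgs18 rc_AI639103_s_at (-0.188 to 0.002), Rgs19 AF068136_at (-0.028 to 0.214), Adcy5 rc_AI011727_at (-0.138 to 0.116), Pde1c L41045_at (-0.169 to 0.182), Pde4a M26715_at (-0.108 to 0.026), Pde4b J04563_at (-0.37 to 0.012), Pde4b M25350_s_at (-0.042 to 0.233), Pde4b rc_AA799729_at (-0.158 to 0.164), Pde4c L27061_g_at (-0.12 to 0.034) and Pde5a U76032_s_at (-0.004 to 0.167). No value that changed sign was past the threshold before or after. A group under the floor of 61.6 on all arrays has only a bound.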
